A study of Mus musculus with 2 samples.

Results

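Mitosis and spindle genes were described in neutrophils grown from bone marrow of C57BL/6 mice with and without miR-223. The group was defined by name, as 52 genes of the CDK1 cell cycle engine, the spindle checkpoint, the kinetochore, the spindle motors, anaphase, cytokinesis and chromosome condensation. Of these, 51 had a probe set that the array annotation named for 1 gene only, out of 18193 genes measured. Ccnb1, which encodes cyclin B1, was the member without a value. Each gene is given by its brightest probe set, the one whose log2(intensity + 16) had the highest mean over both arrays.

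Haematopoietic progenitors of wild-type male mice and of male mir-223 knockout mice were cultured for 6 days with granulocyte colony-stimulating factor (G-CSF), which drives granulocyte production, and stem cell factor (SCF), a growth factor of early blood cells. Both cultures received the translation blocker cycloheximide at 100 ug/ml for the last 8 min. Total RNA from each genotype was hybridised to 1 Affymetrix 3' expression array, which gave 2 arrays in all. How many mice or cultures stood behind each RNA was not given in the sources used here. Without replicate arrays no value has an error between samples, and nothing could be tested. A difference below is the log2(intensity + 16) of the knockout array less that of the wild-type array. It compares these 2 arrays only, and their number limits its precision. The comparison asked how messenger RNA levels differ in cultured neutrophils that lack this microRNA.

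Cells enter mitosis when the kinase CDK1, bound to a B-type or A-type cyclin, is released from inhibition. Condensin then compacts the chromosomes, the kinetochores attach them to spindle microtubules, and the spindle checkpoint delays anaphase until all are attached. In the neutrophil lineage myeloblasts, promyelocytes and myelocytes divide, and later stages have left the cell cycle. Within that lineage the RNA of these genes is therefore known to come from the dividing precursors. In RNA from a whole culture, fewer dividing cells and less RNA per dividing cell cannot be told apart.

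The microRNA that the knockout lacks has 2 mature strands, which are shown with their seed, bases 2 to 8, in capitals. They are from RefSeq on GRCm38.p6, where the gene lies on the X chromosome.
mmu-miR-223-3p, chrX:96242884-96242905: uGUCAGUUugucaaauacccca
mmu-miR-223-5p, chrX:96242842-96242864: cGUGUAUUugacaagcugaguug
No probe set was named for Mir223, so the deletion itself was not checked on these arrays.

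The promoters of the group share sequence features that its choice did not use. RefSeq promoter windows of GRCm38.p6, running from 250 bases before the start of transcription to 50 bases after it, were matched for 44 of the 52 genes, with 47 windows. The windows were searched on both strands for TTTGAA and TTCGAA, the core letters of the cell cycle homology region that the DREAM and MuvB complexes are known to bind, and for CCAAT, the box bound by NF-Y. TTTGAA or TTCGAA was present in 78.7% of the group's windows and in 19.2% of all 32851 promoter windows. CCAAT was present in 78.7% against 37.4%, and both motifs in 70.2% against 7.52%. At least 2 CCAAT boxes were found in 53.2% of the group's windows and 11.7% of all. In 82 windows of the further mitosis genes described below, TTTGAA or TTCGAA stood in 41.5%, CCAAT in 58.5% and both in 25.6%. In 34 windows of S phase genes the shares were 23.5%, 50% and 11.8%, and in 12 of cell cycle exit genes 8.33%, 58.3% and 0%. At least 2 CCAAT boxes were found in 28%, 29.4% and 25% of the windows of these lists. Of the 50 matches to TTTGAA or TTCGAA in the group, 35 began within 50 bases of the start on either side, in 31 genes. Genes with 2 windows, such as Ect2, Prc1 and Bub3, can count the same site in each window. The like share for all promoters is not given, so these positions are not shown to be particular to the group. Each match is a description of the letters and not a bound site.

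To show these layouts beside the expression values, 140 bases around the start, of which 110 lie before it, are printed for each gene with a difference of 0.2 or more in size. The motifs are in capitals, on either strand, so that CCAAT can read ATTGG.
Nek2 promoter, chr1:191821363-191821502, plus strand: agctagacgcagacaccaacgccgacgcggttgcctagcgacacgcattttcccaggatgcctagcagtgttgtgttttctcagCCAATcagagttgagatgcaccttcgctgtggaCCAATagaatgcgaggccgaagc
Spc25 promoter, chr2:69206184-69206323, minus strand: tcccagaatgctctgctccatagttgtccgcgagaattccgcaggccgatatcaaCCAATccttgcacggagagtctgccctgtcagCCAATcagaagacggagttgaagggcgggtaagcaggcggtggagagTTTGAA
Cdk1 promoter, chr10:69352883-69353022, minus strand: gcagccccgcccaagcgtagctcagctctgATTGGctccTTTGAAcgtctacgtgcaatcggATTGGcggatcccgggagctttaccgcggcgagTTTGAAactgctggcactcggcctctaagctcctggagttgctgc
Cks2 promoter, chr13:51645122-51645261, plus strand: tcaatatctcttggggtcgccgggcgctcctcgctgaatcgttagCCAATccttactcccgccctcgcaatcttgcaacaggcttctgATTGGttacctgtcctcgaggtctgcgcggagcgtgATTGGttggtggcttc
Hmmr promoter, chr11:40733408-40733547, minus strand: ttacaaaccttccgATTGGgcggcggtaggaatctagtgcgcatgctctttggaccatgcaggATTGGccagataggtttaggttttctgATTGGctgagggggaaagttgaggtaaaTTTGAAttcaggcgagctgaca
Prc1 promoter, chr7:80294341-80294480, plus strand: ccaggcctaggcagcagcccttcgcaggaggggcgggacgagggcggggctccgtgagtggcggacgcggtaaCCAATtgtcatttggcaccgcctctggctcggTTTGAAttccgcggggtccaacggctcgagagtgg
Pttg1 promoter, chr11:43425952-43426091, minus strand: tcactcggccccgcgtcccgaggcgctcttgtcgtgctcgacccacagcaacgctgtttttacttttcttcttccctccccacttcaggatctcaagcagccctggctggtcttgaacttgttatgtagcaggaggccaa
Nek2, the gene with the highest difference, had 2 CCAAT boxes and no TTTGAA or TTCGAA in this stretch. Among the 6 with the lowest differences, Cdk1, Spc25, Hmmr and Prc1 had both motifs, Cks2 had 3 CCAAT boxes alone, and Pttg1 had neither. Prc1 has 2 promoter windows in the table, and the first is shown.

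All 51 measured genes were expressed on both arrays, where expressed means a mean level at or above the median of all probe sets (5.64 on the log2 scale, an intensity of 33.9). Their intensities ran from 159 for Cdc25c to 5309.8 for Mki67, the proliferation antigen Ki-67, in the brightest probe sets. The group's levels on the 2 arrays were close. The largest difference on either side was 0.32, for Nek2, and -0.26, for Pttg1. None of the 51 reached 0.5 in size, where 1.13% of all 11006 expressed genes were higher by at least that much and 0.591% lower. At 0.25 or more, Nek2 was the member on the higher side, where 8.07% of all expressed genes stood, and Pttg1 the member on the lower side, where 4.8% stood.

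**Figure D1:**
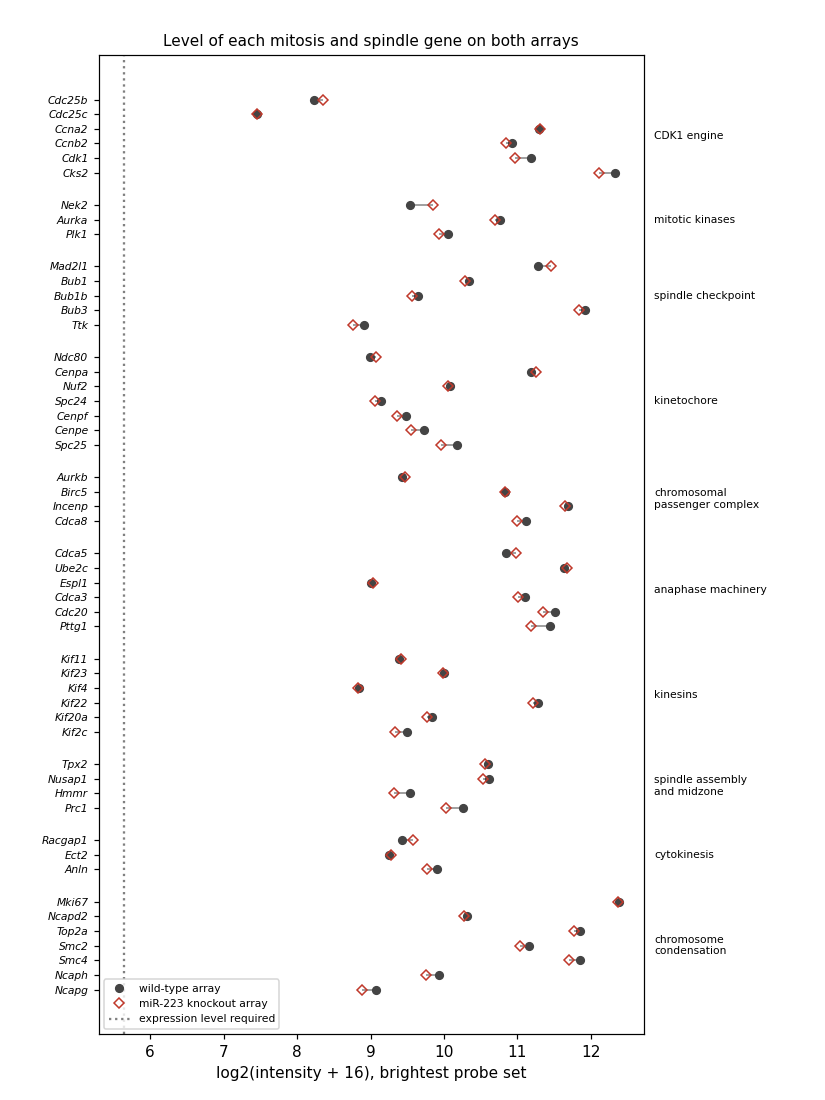
Level of the 51 measured mitosis and spindle genes as log2(intensity + 16) of the brightest probe set, grouped by role, with filled circles for the wild-type array and open diamonds for the knockout array (1 array each). Every pair of points lies above the level required for expression, and the widest gap is that of Nek2 (0.32). Levels of different genes come from different probes and are not comparable with each other.

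Most members were slightly lower in the knockout. Of the 51 members, 14 were higher and 37 were lower in the knockout array, where 49.7% of all expressed genes were higher and 50.1% lower. The median of the members was -0.08, against 0.00 over all expressed genes. Genes at the same level gave the same background, since of the 6987 expressed genes within the members' range of levels 49.6% were higher and 50.2% lower. The sign rests on the scale as deposited, since the spike-in controls gave less signal in the knockout. With the arrays centred on the poly-A controls 42 members were higher and 9 lower, and with the hybridization controls 33 and 18. Relative to the median of all expressed genes, the members' median was -0.08 in both cases. That was fixed in advance, since such centring adds the same amount to every gene. Of the 10 role groups below, 9 had a median under 0 as deposited, 0 with the poly-A controls and 2 (midzone and condensation) with the hybridization controls.

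Most of these differences lay within the spread between probe sets, in a share near that of all expressed genes. The SD between the expressed probe sets of a gene, pooled over 5017 genes, was 0.144, which is not a replicate error. Within this spread lay 35 of the 51 members (68.6%) and 65.7% of all expressed genes. The 3 members above it were Nek2, Mad2l1 and Racgap1, 5.88% of the group against 18.8% of all expressed genes. The 13 members below it made 25.5% of the group against 15.5% of all.

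The CDK1 engine was divided, with 3 of 6 measured genes higher and 3 lower and a median of -0.04. Without probe sets of shared sequence its median was -0.15, but Cdc25b and Cdc25c dropped out and the other genes kept their values. Probe sets of shared sequence are, here and below, those with the suffix _s_at, _x_at or _a_at. The suffix _a_at marks sequence shared by transcripts of the same gene, so the setting also drops probe sets of a single gene. Members left without an expressed probe set have no value in that setting, here and in the role groups below. Cdk1, the kinase that starts mitosis, had an intensity of 2302 in wild type and 1983 in the knockout, a difference of -0.21. Cks2, a small subunit that helps CDK complexes bind substrates, had 5133 and 4396 (-0.22). On these brightest probe sets both were lower in the knockout by more than the spread between probe sets. The other probe set of Cks2 gave -0.10, within the spread, and Cdk1 had no other. The cyclins were closer. Ccnb2, a B-type cyclin, gave 1921 and 1818 (-0.08). Ccna2, the A-type cyclin of S and G2 phase, gave 2504 and 2507 (0.00). Cdc25b and Cdc25c, phosphatases that activate CDK1, stood at 0.12 and 0.00. Cdc25c, at 159 on both arrays, was the dimmest member on the array.

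The mitotic kinases held the member that was highest. Nek2, a centrosome kinase that separates the spindle poles, had 728 in wild type and 910.0 in the knockout (0.32). Its second probe set gave 171 and 214 (0.29), so both were higher in the knockout. Of all expressed genes, 4.59% stood at least as high. Plk1, the polo kinase of mitotic entry and spindle assembly, had 1048 and 957 (-0.13). Aurka, the Aurora kinase of the spindle poles, had 1728 and 1637 (-0.08), so both kinases lay within the spread between probe sets.

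Spindle checkpoint genes were lower in 4 of 5 cases, with a median of -0.08 (-0.05 when probe sets were averaged). Such averages, here and below, take all probe sets of a gene, also those below the level required for expression. Mad2l1, which holds back the anaphase activator Cdc20, was the exception, at 2468 and 2801 (0.18). Ttk, the kinase that starts checkpoint signalling at unattached kinetochores, had 463 and 418 (-0.14). The checkpoint proteins of the Bub family lay within the spread on their brightest probe sets. Bub1 had 1285 and 1234 (-0.06), Bub1b, which encodes BubR1, 787 and 743 (-0.08), and Bub3 3867 and 3631 (-0.09). Further probe sets gave -0.01 for Ttk, 0.11 for Bub1, -0.19 and -0.04 for Bub1b, and -0.26 and 0.14 for Bub3.

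Kinetochore genes were lower in 5 of 7 cases, with a median of -0.09 (-0.05 when probe sets were averaged). The 4 subunits of the Ndc80 complex, which grips the microtubule end, did not share 1 direction. Ndc80 had 494 and 523 (0.08), Nuf2 1069 and 1048 (-0.03), Spc24 550.1 and 517 (-0.09) and Spc25 1140.2 and 982 (-0.21). Cenpe, a kinesin that moves chromosomes to the spindle equator, had 831 and 732 (-0.18). Cenpf, a large outer kinetochore protein, stood at -0.12, and Cenpa, the histone H3 variant of centromeres, at 0.06 (2319 and 2424). Further expressed probe sets gave -0.05 for Spc25, -0.02 for Cenpe, -0.06 and 0.02 for Cenpf, and 0.21 for Cenpa.

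The chromosomal passenger complex, which corrects wrong attachments, had 1 higher and 3 lower genes and a median of -0.03, which was 0.0034 when probe sets were averaged. Its kinase Aurkb had 672 and 691 (0.04), its scaffold Incenp 3294 and 3195 (-0.04), and Birc5, which encodes survivin, 1811 and 1798 (-0.01). Cdca8, which encodes borealin, had 2199 and 2028 (-0.12). All 4 lay within the spread between probe sets.

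Genes of anaphase were divided 3 to 3, with a median of -0.03. It was 0.0062 when probe sets were averaged and 0.04 without probe sets of shared sequence. Pttg1 encodes securin, the inhibitor of separase, and was the lowest member, with 2761 in wild type and 2307 in the knockout (-0.26). At least as low were 4.4% of all expressed genes. Its other expressed probe sets gave -0.01 and 0.13, so they did not repeat the difference. Espl1, which encodes separase itself, had 497 and 506 (0.02). Cdc20, the activator of the anaphase-promoting complex, had 2897 and 2593 (-0.16), but 0.02 and -0.06 on its other probe sets. Ube2c, the ubiquitin-conjugating enzyme of that complex, had 3157 and 3254 (0.04). Cdca5 encodes sororin, which protects sister chromatid cohesion, and both of its probe sets were higher (0.14 and 0.13). Cdca3, a trigger of mitotic entry, stood at -0.09.

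Of the 6 kinesins, 5 were lower and Kif11 was higher, with a median of -0.04 (-0.01 without probe sets of shared sequence). Kif11, the motor that pushes the spindle poles apart, had 654 and 665 (0.02). Kif2c, which takes microtubule ends apart at centromeres, had 703 and 629 (-0.16), but its other probe sets ran from -0.04 to 0.02. Kif22, a chromosome-arm motor, was lower on each of 3 probe sets (-0.07, -0.13 and -0.13). Kif4, Kif20a and Kif23, motors of the central spindle and cytokinesis, stood at -0.01, -0.07 and -0.01.

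The 4 spindle assembly and midzone genes were all lower on their brightest probe sets, with a median of -0.15. It stood at 0.02 when centred on the poly-A controls, -0.06 when probe sets were averaged and -0.08 without probe sets of shared sequence. In that last setting Prc1 dropped out and Hmmr rested on its dimmest probe set (-0.43). Prc1, which bundles the antiparallel microtubules of the midzone, had 1209 and 1028 (-0.23), and its other probe set 788 and 734 (-0.10). Hmmr, a microtubule-associated protein of the spindle poles, had 729 and 622 (-0.22), but its 4 other probe sets ran from -0.43 to 0.18. Of these 4, 3 were higher, and the dimmest gave the -0.43 (106 and 74). Tpx2, the activator of Aurora A, and Nusap1, a spindle stabiliser, stood at -0.04 and -0.08. The cytokinesis genes had a median of 0.03, which was -0.01 under quantile normalization and -0.14 without probe sets of shared sequence, where Anln alone was left. Racgap1, a subunit of centralspindlin, was higher on both probe sets (0.14 and 0.04), and Ect2, the exchange factor for RhoA, stood at 0.03. Anln, which encodes the contractile ring protein anillin, had 946 and 858 (-0.14), but 57.0 and 74.0 (0.30) on its dimmer probe set.

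All 7 chromosome condensation genes were lower on their brightest probe sets, with a median of -0.12. It stood at 0.05 when centred on the poly-A controls, -0.06 when probe sets were averaged and -0.05 without probe sets of shared sequence. The kleisin Ncaph had 961 and 847 (-0.18) and Ncapg, a HEAT-repeat subunit of condensin I, 522 and 456 (-0.19). The ATPase subunits Smc2 (2267 and 2079) and Smc4 (3666 and 3313) stood at -0.12 and -0.15. Ncapd2 had 1255 and 1216 (-0.05). The further probe sets did not follow throughout. Smc4 was higher on its other 2, at 0.28 and 0.24, Ncapg at 0.08, and Ncaph at 0.00. Smc2 had 4 further expressed probe sets, 2 of them higher, that ran from -0.35 to 0.09, and Ncapd2 had 1, at -0.30. Top2a, the topoisomerase that untangles sister chromatids, had 3662 and 3472 (-0.08). Mki67, which coats mitotic chromosomes, had 5309.8 and 5260.4 (-0.01).

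**Figure D2:**
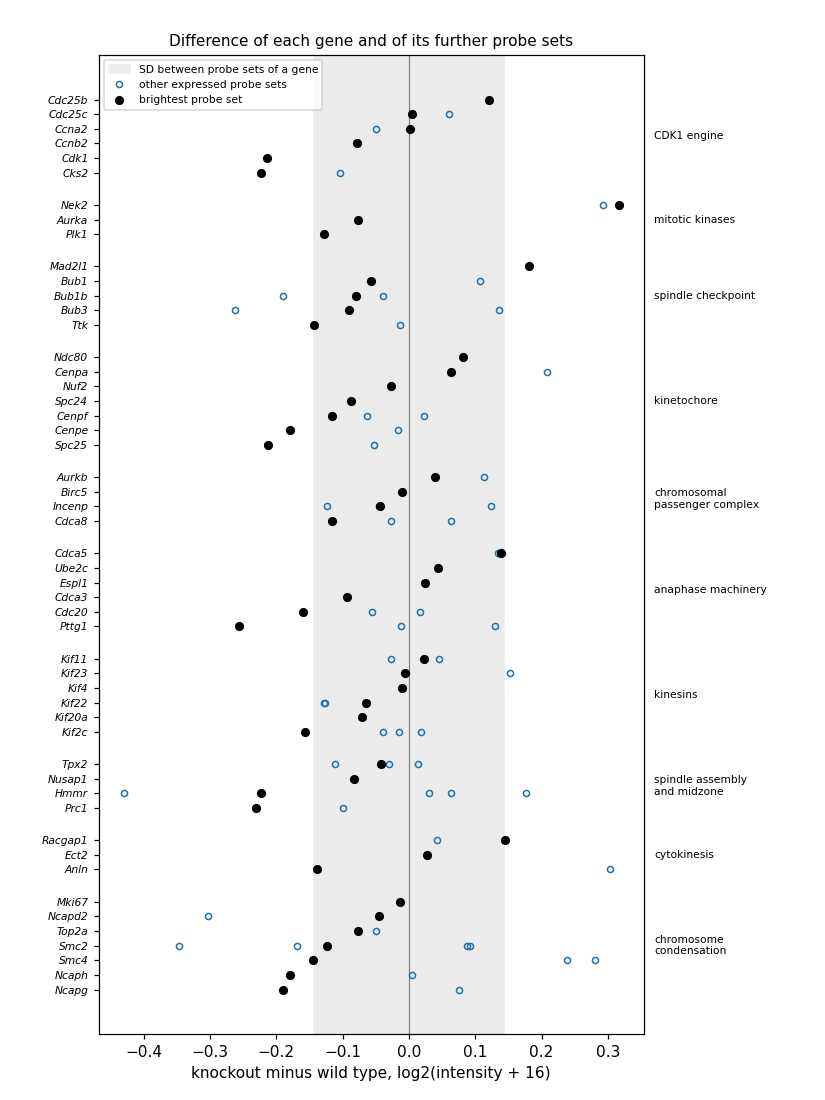
Difference of each gene, knockout minus wild type on log2(intensity + 16), by role, with filled circles for the brightest probe set and open circles for other expressed probe sets. The grey band is the SD between probe sets of a gene (0.144 on either side of 0), and 35 of the 51 filled circles lie inside it. The open circles of Smc4 (0.28 and 0.24) and Hmmr (-0.43 to 0.18) show probe sets that differ in sign.

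The majority on the lower side was smaller on the second probe set. Of the 33 members with at least 2 expressed probe sets, 25 were lower on the brightest and 17 on the second brightest, with medians over the second of -0.01 in the group and 0.03 over all genes. On that second probe set 57.8% of all genes were higher and 41.8% lower, against 48.5% (16 of 33) and 51.5% of the members. The 2 brightest probe sets were both lower for 16 members, both higher for 7, and of opposite sign for 10. Over all their expressed probe sets, 15 of the 33 had 1 sign (6 higher and 9 lower), where 51.9% of 5017 genes did. The 6 were Nek2, Cdca5, Racgap1, Aurkb, Cenpa and Cdc25c. The 9 were Cks2, Prc1, Spc25, Cenpe, Ttk, Bub1b, Kif22, Top2a and Ncapd2. Cdk1, Plk1, Mad2l1 and 15 other members rest on 1 expressed probe set.

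Members with and without the cell cycle homology letters had like medians. The 34 measured members whose windows hold TTTGAA or TTCGAA had a median of -0.08, with 9 higher and 25 lower. The 9 measured members with a window but none of those letters also had a median of -0.08, with 2 higher and 7 lower. They include both extremes of the group, Nek2 and Pttg1, and ran from -0.26 to 0.32, whereas those with the letters ran from -0.23 to 0.14.

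Other genes of the cell cycle were set beside the group. Among 84 expressed further mitosis genes the median was -0.04, and 25 were higher and 59 lower. They were led by Ckap2l, a spindle protein (716 and 526, -0.43, and -0.09 on another probe set), Cdc25a, a CDK phosphatase (-0.31), and the kinetochore genes Cenpw (-0.28) and Cenpq (-0.23). The 33 S phase genes had the same median, -0.04, and divided into 7 higher and 26 lower. Rrm2, the small subunit of ribonucleotide reductase, was the largest of them at 5362 and 6884 (0.36), followed by cyclin E1, Ccne1 (-0.20), the replication inhibitor Gmnn (-0.17) and the polymerase subunit Pola1 (-0.15). All expressed genes, for comparison, had a median of 0.00, with 49.7% higher and 50.1% lower. Centred on the poly-A controls the medians of these lists were 0.13 and 0.13, beside 0.17 over all expressed genes.

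Genes that restrain or end the cell cycle stood on the other side on the scale as deposited. Of the 13 expressed ones 11 were higher and 2 lower, and their median was 0.13. Of all expressed genes, 49.7% were higher and 50.1% lower. Within the spread between probe sets lay 5 of the 13, against 65.7% of all expressed genes. Centred on the poly-A controls, the mitosis, S phase and exit lists all had medians above 0, as did all expressed genes (0.17). Btg1, an antiproliferative gene, had 2210 and 2886 (0.38), Gadd45a, a stress-response gene, 406 and 496 (0.28). The 2 lower genes were Cdkn1a, which encodes the CDK inhibitor p21, at 501 and 394 (-0.34), and the repressor E2f5, at 426 and 361 (-0.23). With the arrays centred on the poly-A controls Cdkn1a and E2f5 remain below 0, at -0.16 and -0.06. Btg2 counted as higher at 0.05, and another of its probe sets gave -0.74. These lists are sets of related genes on the same 2 arrays, so their counts are not independent of the group's.

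**Figure D3:**
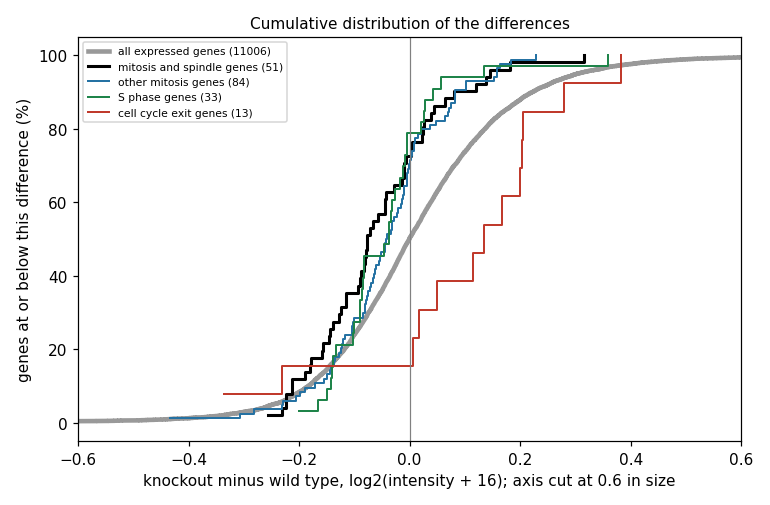
Cumulative distribution of the difference, knockout minus wild type on log2(intensity + 16), for all 11006 expressed genes, the 51 mitosis and spindle genes, 84 further mitosis genes, 33 S phase genes and 13 cell cycle exit genes, with the vertical axis in percent of each list. The curves of the mitosis and S phase lists cross 0 above that of all genes, with medians of -0.08, -0.04 and -0.04 against 0.00. The curve of the exit genes crosses 0 below that of all genes (median 0.13). Just past its 2 lowest genes, Cdkn1a and E2f5, it runs above.

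Markers of the cultured lineage and of other cells differed between the same arrays. For comparison, 49.7% of all expressed genes were higher in the knockout and 50.1% lower. All 11 measured neutrophil markers, among them S100a8, S100a9, Ltf and Mmp8, were expressed. Of these, 10 were higher in the knockout and Camp was lower (-0.29), with summed intensities of 129800 and 134705. The 5 measured promyelocyte granule genes, including Mpo and Elane, were all higher, with a median of 0.15 and sums of 74126 and 81589. Of 8 progenitor markers 5 were higher (sums of 7160 and 7869). All 8 mast cell and basophil markers were lower, with a median of -0.54 and sums of 6124 and 4120.1, as were 6 of 7 megakaryocyte and platelet markers (sums of 2020.2 and 1299). Gata2 (-0.53) was counted in both the progenitor and the mast cell and basophil list. Itgb3 was the platelet marker that was higher, at 1.34. Of 9 monocyte and macrophage markers 7 were higher (sums of 7031 and 8236), and Cx3cr1 (-0.60) and Adgre1 (-0.02) were lower. Eosinophil markers were lower in 3 of 4 expressed cases (6 measured, sums of 1233 and 1006), erythroid markers in 3 of 4 (6 measured, 5093 and 4727) and lymphoid markers in 1 of 4 (7 measured, 1801 and 2514). The eosinophil marker that was higher was Siglecf, at 0.92. No marker was listed at 0, and Ccr3, Il5ra, Hba-a1, Alas2, Cd3e, Cd79a and Il7r were measured below the level required for expression. The part of these cells in the differences of the mitosis genes was not tested.

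Median intensities were close on both arrays, but the spike-in controls were lower in the knockout. The median intensities of wild type and knockout were 34.1 and 33.7. The poly-A controls had a median difference of -0.17 (24 of 24 lower), and the hybridization controls -0.11 (17 of 18 lower), so centring on them adds 0.17 or 0.11 to every gene. Both amounts are larger in size than the members' median of -0.08. The signal of beta-actin at the 3' end exceeded that at the 5' end by 0.33 and 0.25 on the log2 scale.

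**Figure D4:**
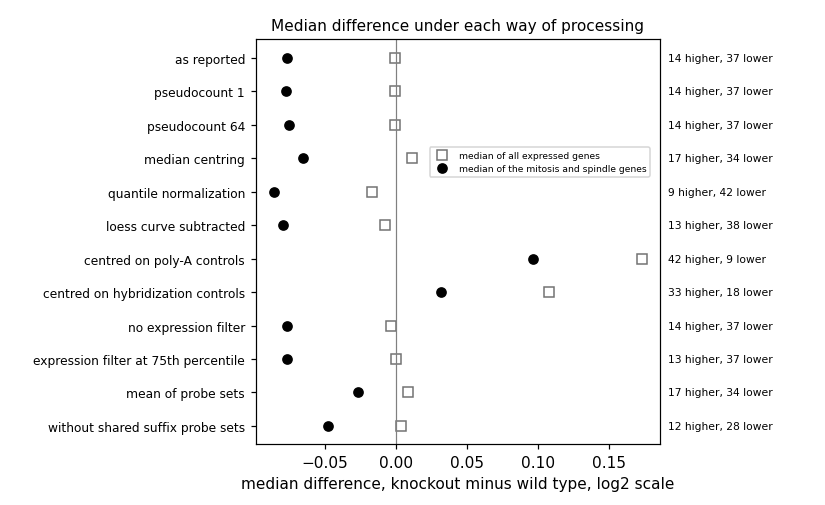
Median difference of the mitosis and spindle genes (filled circles) and of all expressed genes (open squares), knockout minus wild type on the log2 scale, under each way of processing, with the number of members higher and lower at the right. Both medians shift together when the arrays are centred on spike-in controls, to 0.10 and 0.17 with the poly-A controls. The members' median lies below that of all genes in each of the settings shown. Centring on a median or on controls adds the same amount to every gene, so it cannot change the gap between the medians.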

How the data were processed

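Each genotype was measured on 1 array from total RNA. Per the labels' protocols, Trizol was used for extraction and the Affymetrix 3' IVT Express kit for biotin labelling, which favours 3' ends. The values deposited are linear intensities, 1 for each probe set on each array. The steps behind them (background correction, summarization, normalization) are not given in the sources used. Of 45101 probe sets, 64 were controls. By the platform annotation 34945 belonged to 1 gene and 932 to several, and 9160 had no gene name; only the first kind was used. Symbols were updated through Entrez identifiers with RefSeq genes of GRCm38.p6.

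Intensities were used as deposited and transformed to log2(intensity + 16), which shrinks differences of dim genes. Simulated data were used to check the computation, with planted differences larger than those of nearly all members. They do not bear on differences as small as most of those reported here. A gene took its brightest probe set and counted as expressed at or above the median of all probe sets. With 1 array per genotype there was no test. The genes and lists were chosen with earlier results of these data known. All members could be named, and of each other cell cycle list the 4 with the largest differences in size; cell type markers are given by counts with defining genes. Btg2, Camp, Gata2, Itgb3, Siglecf, Cx3cr1 and Adgre1 were named after their values were seen. Promoter and microRNA sequences are RefSeq's. Alternatives were other pseudocounts, scalings, filters and probe set rules, computed with Python 3.11.15, pandas 2.3.3 and statsmodels 0.14.6 (loess).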

Additional observations from a re-analysis of the deposited data

How the results depend on the processing

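No paired analysis was possible because each genotype has 1 array. Centring on the poly-A controls turned the members' median to 0.10, with 42 higher and 9 lower and 6 at 0.25 or more in size, and gave 0.13 for the further mitosis genes, 0.13 for the S phase genes and 0.31 for the exit genes. The hybridization controls gave 0.031, with 33 and 18, and 0.066 for the further mitosis and 0.070 for the S phase genes. By construction these settings add a constant to every gene. Quantile normalization left 9 members higher. The second probe set, an alternative chosen after seeing the data, left 17 of 33 lower, over fewer genes. At 0.25 or more in size, 1 member remained under median centring and 0 when a gene's probe sets were averaged. The average takes in probe sets below the level required for expression. With these included Nek2 stood at 0.17, while its expressed probe sets gave 0.32 and 0.29. Without probe sets of the suffix _s_at, _x_at or _a_at, 3 members stood at 0.25 or more in size (Hmmr, Nek2 and Bub3). The members' median was then -0.05 over 40 genes, 12 higher and 28 lower. The setting also drops probe sets whose sequence is shared only by transcripts of the same gene. In that setting Pttg1 stood at 0.13, on another probe set. Averaged over probe sets, the members' median was -0.03, against 0.01 over all expressed genes. Of 51 members, 36 kept their sign under every alternative except spike-in centring that gave them a value (27 lower and 9 higher), and 16 under all that did. The pseudocounts and expression filters cannot turn a sign, so these counts rest on the other scalings and the probe set rules. No such share is given for all expressed genes. Depth is not defined for these arrays; the dimmest member, Cdc25c, was still above the level required for expression.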
